A study of Homo sapiens with 6 samples.

Results

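The ADAM and ADAMTS genes encode a family of zinc metalloproteases and their catalytically silent relatives. They were taken as every gene whose whole symbol is ADAM, ADAMTS or ADAMTSL followed by digits, together with ADAMDEC1. The symbol had to stand alone on its transcript cluster, the set of probes that the array summarises into 1 value. This gave 44 genes of the 18417 symbols measured that way, namely 22 ADAM genes with ADAMDEC1 among them, 17 ADAMTS genes and 5 ADAMTS-like genes. 43 of them had 1 cluster, and ADAMTSL1 had 2, of which the one with the higher mean over all arrays was used. The gene annotation types 42 as protein-coding; ADAM5 and ADAM6 are not. Clusters of ADAM3A and ADAM20P1, a cluster shared by ADAM21P1 and ADAM21, and the antisense gene ADAMTSL4-AS1 fell outside the rule.

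RNA came from 3 human breast cancer lines with 2 arrays each, listed here as 231BrM-2a, 231BoM-1833 and MDA-MB-231. MDA-MB-231 is a triple-negative line of mesenchymal character, and the others are derivatives of it selected in mice for growth in brain (231BrM-2a) and in bone (231BoM-1833). Nothing was added to the cultures beyond medium, serum and antibiotics, and in all 3 lines antibody-coupled magnets kept the cells that were CD24-negative, CD44-positive and ESA-positive, ESA being the protein of EPCAM. Each organ preference is represented by 1 derivative, so the preference and any other property of that derivative cannot be told apart. Replicates are described in the labels as biological, with no mention of separate cultures or sorts. The p-values therefore reflect only how far these samples spread, part of which may be technical.

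Values are log2 levels that had been put on 1 scale before deposit, with array medians of 6.58 to 6.64. Across named clusters, replicate arrays correlated at 0.993 to 0.996 and arrays of different lines at 0.967 to 0.983, over clusters, which are not independent. Over the 44 genes, the median SD between the 2 replicates of a line was 0.091 and the largest was 0.42. CD44 lay at 11.45 and 11.46 in 231BrM-2a, 12.17 and 11.82 in 231BoM-1833, and 11.87 and 11.86 in MDA-MB-231. EPCAM lay at 8.15 and 8.23, 8.32 and 7.28, and 8.13 and 7.93 in the same order, and CD24 at 5.91 and 5.91, 6.49 and 5.76, and 6.20 and 6.04. The 2 arrays of 231BoM-1833 thus differed more in EPCAM and CD24 than those of either other line, and neither gene was called in any comparison. CD44 was lower in 231BrM-2a than in 231BoM-1833 (-0.55, adjusted p = 0.014), a call that was lost without 231BoM-1833 replicate 1 (adjusted p = 0.0565), 231BrM-2a replicate 1 (adjusted p = 0.074) or replicate 2 (adjusted p = 0.0704). Of 8 measured leukocyte markers, only NKG7 was called, lower in each derivative than in MDA-MB-231 (a call lost when any 1 of the 4 arrays compared was left out, adjusted p = 0.0845 to 0.216), and the pan-leukocyte gene PTPRC stayed between 3.65 and 3.86 on all arrays.

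Membrane-anchored ADAM proteins cut the ectodomains of other surface proteins, a step called shedding that releases growth factors and cytokines and starts Notch signalling. ADAMTS proteins are secreted and carry thrombospondin type 1 repeats; they trim procollagens, cleave proteoglycans and act on fibrillin microfibrils. ADAMTS-like proteins keep the repeats but lack the protease domain. In breast cancer the family is studied for its part in growth factor release, invasion and remodelling of the matrix. Transcript level is only 1 layer of their control, since the proteases are made as inactive precursors and are held in check by TIMP proteins.

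The promoters of 4 genes among those with the largest differences from MDA-MB-231 are printed as sequence context. Whether these promoters bear on the differences was not tested. ADAMTSL4 and ADAM10 had the largest positive differences in 231BrM-2a against MDA-MB-231, ADAMTS6 the largest negative one, and ADAMTSL1 the largest positive one in 231BoM-1833 against MDA-MB-231. Each sequence is the 250 bases before the start of the gene in RefSeq on GRCh38.p14, on the gene's own strand, 5′ to 3′. 4 motifs were searched on both strands. The core of the Sp family site was read as GGGCGG. The core of the TEAD site was read as CATTCC. The AP-1 site was read as TGANTCA. The TATA box was read as TATAAA. Capitals mark Sp and TEAD matches, overlapping ones included, and none of these 4 promoters held an AP-1 or TATA match.
ADAMTSL4, chr1:150549158-150549407, plus strand: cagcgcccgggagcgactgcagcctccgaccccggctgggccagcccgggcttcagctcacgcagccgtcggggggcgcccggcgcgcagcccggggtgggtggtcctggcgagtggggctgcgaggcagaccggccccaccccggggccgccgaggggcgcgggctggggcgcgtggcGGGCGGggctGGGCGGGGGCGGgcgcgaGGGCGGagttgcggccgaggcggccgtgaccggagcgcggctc
ADAM10, chr15:58749708-58749957, minus strand: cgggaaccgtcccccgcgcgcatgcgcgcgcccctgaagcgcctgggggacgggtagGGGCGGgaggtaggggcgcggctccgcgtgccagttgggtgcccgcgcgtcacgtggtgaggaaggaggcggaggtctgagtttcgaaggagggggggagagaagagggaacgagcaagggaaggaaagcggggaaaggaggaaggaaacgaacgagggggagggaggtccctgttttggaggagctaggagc
ADAMTS6, chr5:65481921-65482170, minus strand: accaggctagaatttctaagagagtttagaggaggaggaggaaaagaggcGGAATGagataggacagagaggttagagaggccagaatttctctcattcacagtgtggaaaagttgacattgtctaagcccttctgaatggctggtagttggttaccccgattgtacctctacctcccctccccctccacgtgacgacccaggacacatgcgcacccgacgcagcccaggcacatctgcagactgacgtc
ADAMTSL1, chr9:18473903-18474152, plus strand: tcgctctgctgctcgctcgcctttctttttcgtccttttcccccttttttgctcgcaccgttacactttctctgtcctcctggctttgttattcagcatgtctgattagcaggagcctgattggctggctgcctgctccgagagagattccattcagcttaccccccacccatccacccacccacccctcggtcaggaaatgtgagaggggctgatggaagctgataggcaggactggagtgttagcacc

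The 4 promoters differ in composition. That of ADAMTSL4 is 83.6% G and C and holds 4 Sp matches, which begin 71, 61, 55 and 43 bases before the start. That of ADAM10 is 68.4% G and C with 1 Sp match at 193 bases, that of ADAMTS6 is 52.4% with 1 TEAD match at 200 bases, and that of ADAMTSL1 is 54.8% with 0 matches. Of the 44 genes, 28 had a promoter in the RefSeq table, 11 of them called in at least 1 comparison. The Sp letters occurred in 8 of these 11 and in 13 of the 17 uncalled genes, against 42.6% of all 35093 promoters of that length. The TEAD letters occurred in 2 of 11 and 2 of 17 (11.9% of all), the TATA letters in 1 of 11 and 1 of 17 (10.7%), and the AP-1 letters in 1 of 11, ADAMTS12, and 0 of 17 (6.57%). The median G and C content was 73.6% in both called and uncalled genes, against 58% over all promoters. A match describes letters only and is not evidence of a bound factor.

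Across the family, 14 of the 44 genes differed between lines in at least 1 comparison and 30 in none. The share of all symbols called in at least 1 comparison was not counted, so these counts alone do not set the family apart. In 231BrM-2a against MDA-MB-231, 3 genes were higher (ADAMTSL4, ADAM10 and ADAM19) and 5 lower (ADAMTS6, ADAM8, ADAM23, ADAMTS12 and ADAMTS10). That is 18.2% of the family, against 19.0% of all 18417 symbols (10.4% higher and 8.57% lower). In 231BoM-1833 against MDA-MB-231, 7 were higher (ADAMTSL1, ADAM23, ADAMTS1, ADAMTS6, ADAM19, ADAMTS3 and ADAM22) and 1 lower (ADAMTS10), again 18.2%, against 15.7% of all symbols (8.32% higher and 7.36% lower). In 231BrM-2a against 231BoM-1833, 2 were higher (ADAMTSL4 and ADAM10) and 9 lower, 25.0% of the family against 23.1% of all symbols (12.3% higher and 10.8% lower). Differences were called by limma at a Benjamini-Hochberg adjusted p under 0.05 over all named clusters.

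With both directions pooled, the shares called were close to the background in each comparison. By direction, 6.82% of the family were higher and 11.4% lower in 231BrM-2a against MDA-MB-231 (all symbols 10.4% and 8.57%). In 231BoM-1833 against MDA-MB-231 these shares were 15.9% and 2.27% (all symbols 8.32% and 7.36%). In 231BrM-2a against 231BoM-1833 they were 4.55% and 20.5% (all symbols 12.3% and 10.8%). The family's medians lay near those of all symbols. The median log2 difference was -0.12 in 231BrM-2a against MDA-MB-231 (all symbols -0.05), 0.02 in 231BoM-1833 against MDA-MB-231 (all symbols -0.05) and -0.04 in 231BrM-2a against 231BoM-1833 (all symbols 0.01). By subfamily, the ADAMTS genes numbered 0 higher and 3 lower in 231BrM-2a against MDA-MB-231, 3 higher and 1 lower in 231BoM-1833 against MDA-MB-231, and 0 higher and 6 lower in 231BrM-2a against 231BoM-1833, of 17. The shares higher were 0.0%, 17.6% and 0.0% in that order, against 10.4%, 8.32% and 12.3% of all symbols. The shares lower were 17.6%, 5.88% and 35.3%, against 8.57%, 7.36% and 10.8% of all symbols. The 22 ADAM genes, with ADAMDEC1 among them, numbered 2 higher and 2 lower, 3 and 0, and 1 and 2 in the same order. Their shares were 9.09%, 13.6% and 4.55% higher, and 9.09%, 0.0% and 9.09% lower. The 5 ADAMTS-like genes numbered 1 higher and 0 lower, 1 and 0, and 1 and 1. Their shares were 20.0% higher in each comparison, and 0.0%, 0.0% and 20.0% lower. The comparisons of the derivatives with MDA-MB-231 share its 2 arrays, so their calls are not independent.

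**Figure D1:**
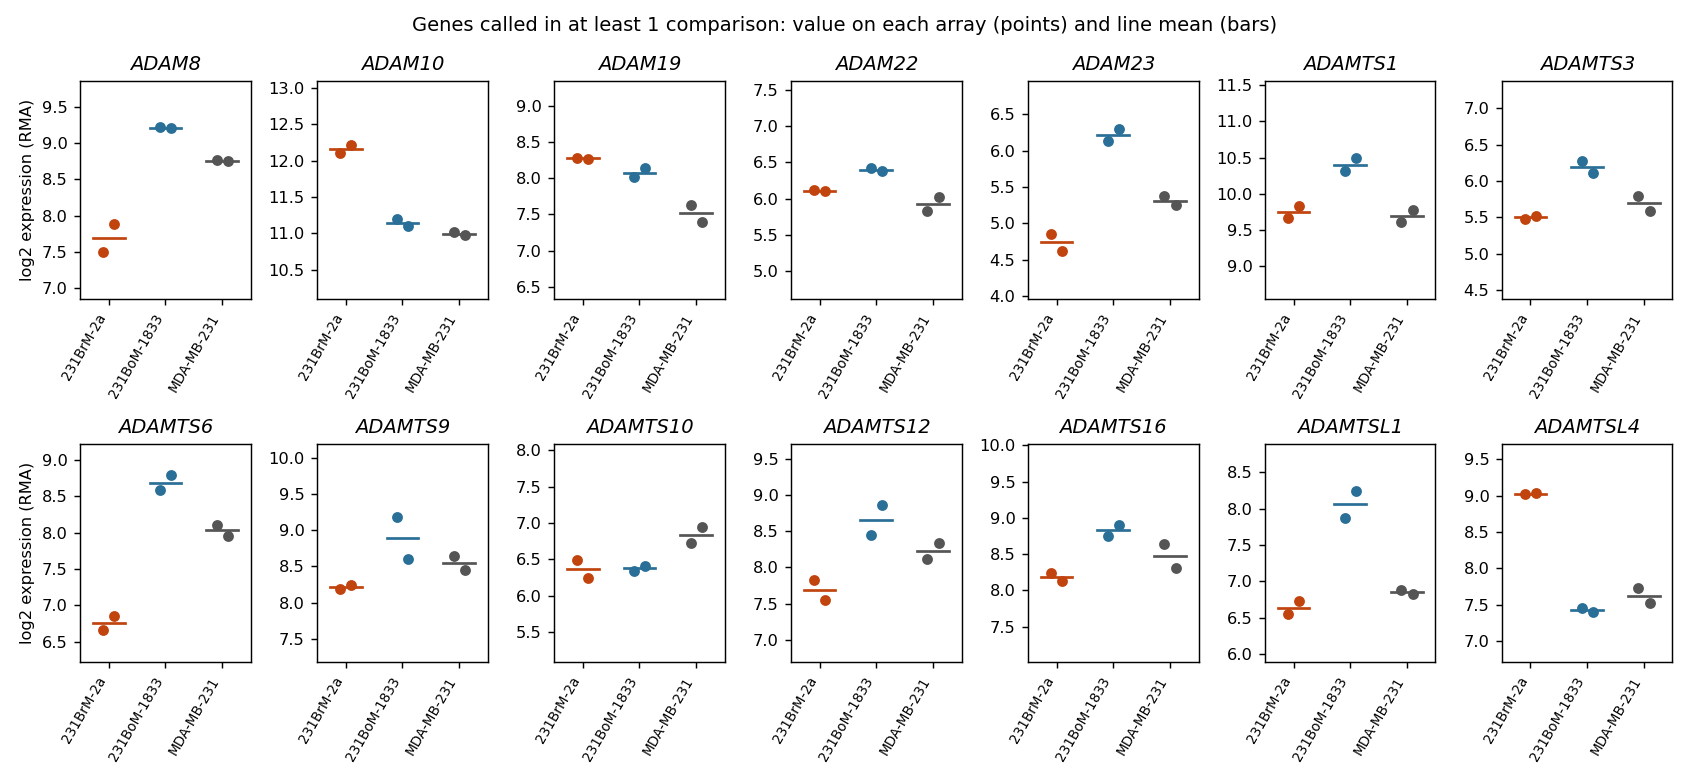
Log2 level on each of the 6 arrays for the 14 genes called in at least 1 comparison, with 231BrM-2a, 231BoM-1833 and MDA-MB-231 from left to right; points are arrays, bars are line means, and every vertical axis spans the same log2 range. ADAMTSL4 and ADAM10 sit highest in 231BrM-2a, and ADAMTSL1 and ADAM23 sit highest in 231BoM-1833.

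**Figure D2:**
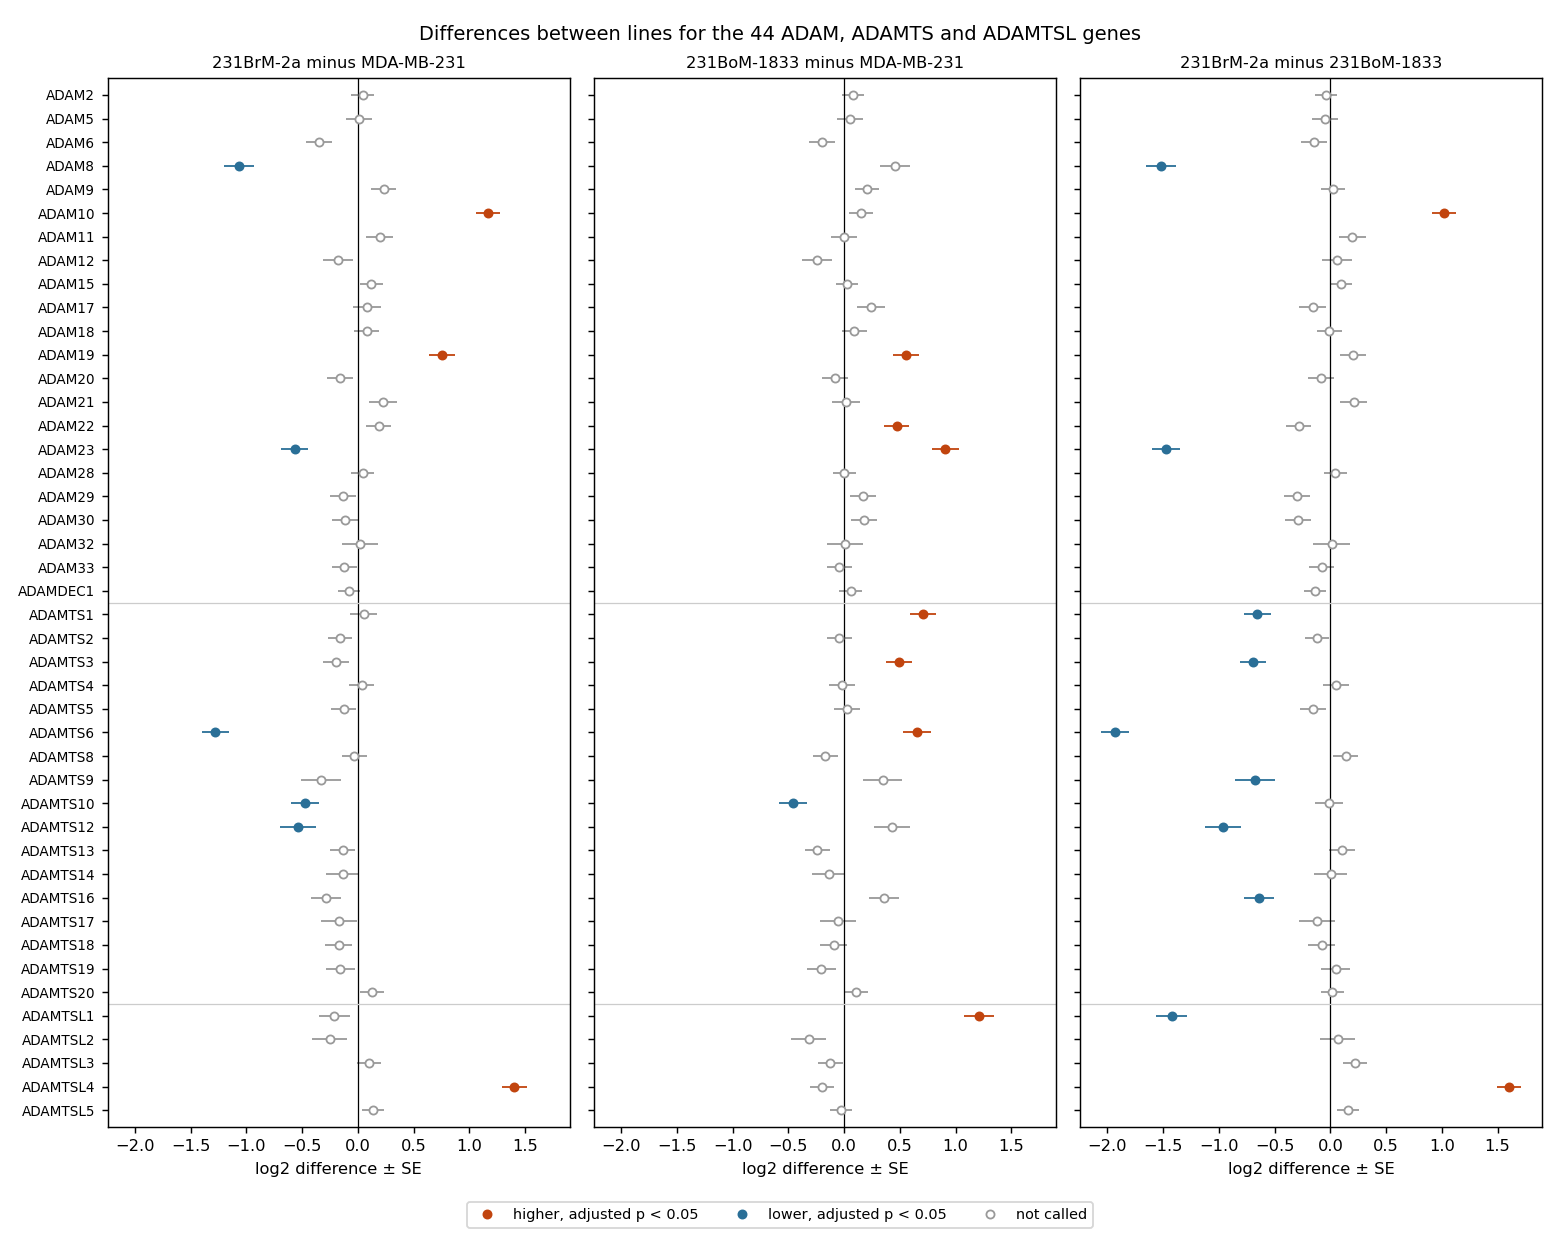
Log2 difference with its standard error for all 44 genes in the 3 comparisons; filled points passed an adjusted p of 0.05 and open points did not. The right panel shows 9 filled points left of 0 and 2 right of it.

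Among the 9 measured shedding ADAM genes, ADAM10 was higher and ADAM8 lower in 231BrM-2a than in both other lines, and ADAM19 was higher in both derivatives than in MDA-MB-231. ADAM10 encodes the protease that cuts Notch receptors, cadherins and the amyloid precursor protein. It lay at 12.11 and 12.22 in 231BrM-2a, 11.19 and 11.10 in 231BoM-1833, and 11.01 and 10.98 in MDA-MB-231. Both 231BrM-2a arrays stood above all 4 others. In RNA from a pool of cells, a change in RNA per cell and a change in the share of cells that express a gene cannot be told apart. The difference was 1.17 ± 0.10 (SE) against MDA-MB-231, 2.25-fold (adjusted p = 0.000127), and 1.02 ± 0.10 against 231BoM-1833, 2.03-fold (adjusted p = 0.000166). Against MDA-MB-231, 231BoM-1833 differed by 0.15 (adjusted p = 0.361).

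ADAM8, a shedder best known from leukocytes and also found in aggressive breast tumours, lay at 7.49 and 7.88 in 231BrM-2a, 9.22 and 9.21 in 231BoM-1833, and 8.76 and 8.75 in MDA-MB-231. The 3 lines did not overlap, and the 231BrM-2a arrays were lowest. The difference of 231BrM-2a was -1.07 ± 0.13 against MDA-MB-231, 2.1-fold lower (adjusted p = 0.000884), and -1.52 ± 0.13 against 231BoM-1833, 2.87-fold lower (adjusted p = 7.08e-05). In 231BoM-1833 against MDA-MB-231 it was 0.45 ± 0.13, just short of the threshold (adjusted p = 0.0507). It passed under 7 of the 15 alternative settings (adjusted p = 0.034 to 0.0427), 2 of which left out 231BrM-2a replicate 1 or 2. Those 2 repeat the fit of the compared lines alone, which is also among the 7, so the 7 are not separate.

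ADAM19, or meltrin beta, which cleaves neuregulin precursors, lay at 8.28 and 8.27 in 231BrM-2a, 8.02 and 8.13 in 231BoM-1833, and 7.63 and 7.40 in MDA-MB-231. Both derivatives stood above the parental arrays. It was 1.69-fold higher in 231BrM-2a (0.76 ± 0.12, adjusted p = 0.00233) and 1.47-fold higher in 231BoM-1833 (0.56 ± 0.12, adjusted p = 0.0141) than in MDA-MB-231. The call in 231BoM-1833 was lost if its replicate 2 (adjusted p = 0.0525) or MDA-MB-231 replicate 2 (adjusted p = 0.114) was left out.

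ADAM17, the protease that releases tumour necrosis factor and most ligands of the EGF receptor, passed no test. Its arrays read 10.51 and 10.28 in 231BrM-2a, 10.47 and 10.64 in 231BoM-1833, and 10.26 and 10.37 in MDA-MB-231, so the lines overlapped. The differences were 0.08 in 231BrM-2a (adjusted p = 0.685) and 0.24 in 231BoM-1833 (adjusted p = 0.209) against MDA-MB-231. ADAM9, ADAM12, ADAM15, ADAM28 and ADAM33 were not called either. Among these 6 uncalled shedders the largest difference was that of ADAM12, or meltrin alpha, -0.24 in 231BoM-1833 against MDA-MB-231 (adjusted p = 0.25).

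ADAM22 and ADAM23 belong to the ADAM proteins that have lost the catalytic site and serve as receptors for LGI proteins in nervous tissue. ADAM23 and ADAMTS6 were the 2 of the 44 genes called in all 3 comparisons. The share of all symbols called in all 3 was not counted, so the pair is not shown to be unusual. ADAM23 lay at 4.86 and 4.62 in 231BrM-2a, 6.14 and 6.30 in 231BoM-1833, and 5.37 and 5.25 in MDA-MB-231. The 3 lines did not overlap. Against MDA-MB-231 it was 1.48-fold lower in 231BrM-2a (-0.57 ± 0.12, adjusted p = 0.0118) and 1.88-fold higher in 231BoM-1833 (0.91 ± 0.12, adjusted p = 0.00206). Between the derivatives the difference was 2.78-fold (adjusted p = 4.93e-05). The call in 231BrM-2a against MDA-MB-231 was lost without 231BrM-2a replicate 2 (adjusted p = 0.105), MDA-MB-231 replicate 1 (adjusted p = 0.0821) or replicate 2 (adjusted p = 0.051).

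ADAM22 lay at 6.12 and 6.11 in 231BrM-2a, 6.42 and 6.38 in 231BoM-1833, and 5.83 and 6.03 in MDA-MB-231. The 3 lines did not overlap. It was 1.39-fold higher in 231BoM-1833 than in MDA-MB-231 (0.47 ± 0.11, adjusted p = 0.0218). That call was lost without 231BoM-1833 replicate 1 (adjusted p = 0.0594), MDA-MB-231 replicate 1 (adjusted p = 0.126) or replicate 2 (adjusted p = 0.0536), and when unnamed clusters entered the adjustment (adjusted p = 0.0562). ADAM11, the remaining gene of this group, reached 0.20 in 231BrM-2a against 231BoM-1833 (adjusted p = 0.293). ADAM22, ADAM23 and ADAMTS3 were the called genes among the dimmest clusters by mean level, those up to 6.26 on the log2 scale, which held 22 of the 44.

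The 7 measured ADAM genes of the reproductive tract, where many act in sperm and egg contact, were not called by limma in any comparison, with 2 of 7 at an unadjusted p under 0.05 in 231BrM-2a against 231BoM-1833 and 0 in the others. ADAM29 had the largest difference among them, -0.30 in 231BrM-2a against 231BoM-1833 (adjusted p = 0.0941). ADAMDEC1, a soluble protease of intestinal macrophages, reached -0.14 in the same comparison (adjusted p = 0.384). ADAM6, a gene that encodes no known protein in humans, had the largest difference of all 30 uncalled genes. It gave a difference of -0.35 ± 0.12 in 231BrM-2a against MDA-MB-231 (adjusted p = 0.0698), which passed under 4 alternatives (adjusted p = 0.0439 to 0.0467). Among them, those without 231BoM-1833 replicate 1 or 2 repeat the fit of the compared lines alone, so the 4 are not separate.

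Of the 6 measured ADAMTS genes that cleave proteoglycans such as versican and aggrecan, ADAMTS1 and ADAMTS9 were lower in 231BrM-2a than in 231BoM-1833. ADAMTS1 lay at 9.67 and 9.83 in 231BrM-2a, 10.32 and 10.49 in 231BoM-1833, and 9.62 and 9.78 in MDA-MB-231. The 231BoM-1833 arrays stood above the rest, while those of the other lines overlapped. It was 1.57-fold lower in 231BrM-2a than in 231BoM-1833 (-0.65 ± 0.12, adjusted p = 0.0041) and 1.63-fold higher in 231BoM-1833 than in MDA-MB-231 (0.71 ± 0.12, adjusted p = 0.00592), a call that was lost without MDA-MB-231 replicate 1 (adjusted p = 0.0522). In 231BrM-2a against MDA-MB-231 it differed by 0.05 ± 0.12 (adjusted p = 0.798).

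ADAMTS9 lay at 8.19 and 8.24 in 231BrM-2a, 9.19 and 8.60 in 231BoM-1833, and 8.65 and 8.45 in MDA-MB-231. Its 231BoM-1833 arrays were the most discordant pair of the family and overlapped with the MDA-MB-231 arrays, while the 231BrM-2a arrays lay below both. It was 1.6-fold lower in 231BrM-2a than in 231BoM-1833 (-0.68 ± 0.18, adjusted p = 0.0223). Without 231BoM-1833 replicate 1 this difference was -0.38 (adjusted p = 0.0761), and the call was also lost without 231BrM-2a replicate 1 (adjusted p = 0.105) or replicate 2 (adjusted p = 0.0874) and when unnamed clusters entered the adjustment (adjusted p = 0.0707). In 231BoM-1833 against MDA-MB-231 it differed by 0.35 (adjusted p = 0.211), and by 0.64 without 231BoM-1833 replicate 2 (adjusted p = 0.0214). Of ADAMTS4, ADAMTS5, ADAMTS8 and ADAMTS20, none was called; the largest difference was -0.17 for ADAMTS8 in 231BoM-1833 against MDA-MB-231 (adjusted p = 0.327).

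ADAMTS3, which removes the amino-terminal propeptide of procollagen and activates VEGF-C, was the called gene among 3 procollagen-trimming ADAMTS genes. It lay at 5.48 and 5.52 in 231BrM-2a, 6.28 and 6.11 in 231BoM-1833, and 5.80 and 5.59 in MDA-MB-231. The 3 lines did not overlap. It was 1.62-fold lower in 231BrM-2a than in 231BoM-1833 (-0.69 ± 0.12, adjusted p = 0.00278) and 1.41-fold higher in 231BoM-1833 than in MDA-MB-231 (0.49 ± 0.12, adjusted p = 0.0233). The call against MDA-MB-231 was lost without 231BoM-1833 replicate 1 (adjusted p = 0.0824), MDA-MB-231 replicate 1 (adjusted p = 0.0503) or replicate 2 (adjusted p = 0.163), and when unnamed clusters entered the adjustment (adjusted p = 0.0616). ADAMTS2 reached -0.16 in 231BrM-2a against MDA-MB-231 (adjusted p = 0.34).

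ADAMTS6 and ADAMTS10 are a homologous pair that act on fibrillin microfibrils, and mutations of ADAMTS10 cause Weill-Marchesani syndrome. ADAMTS6 had the largest difference of the family. It lay at 6.66 and 6.85 in 231BrM-2a, 8.58 and 8.79 in 231BoM-1833, and 8.10 and 7.96 in MDA-MB-231. The lines did not overlap, with 231BrM-2a lowest and 231BoM-1833 highest. It was 3.82-fold lower in 231BrM-2a than in 231BoM-1833 (-1.93 ± 0.12, adjusted p = 1.03e-05). Against MDA-MB-231 it was 2.43-fold lower in 231BrM-2a (-1.28 ± 0.12, adjusted p = 0.000195) and 1.57-fold higher in 231BoM-1833 (0.65 ± 0.12, adjusted p = 0.00958), a call that was lost without MDA-MB-231 replicate 2 (adjusted p = 0.0855).

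ADAMTS10 was instead lower in both derivatives. It lay at 6.49 and 6.24 in 231BrM-2a, 6.34 and 6.41 in 231BoM-1833, and 6.73 and 6.94 in MDA-MB-231. The derivatives overlapped with each other and lay below the parental arrays, 1.39-fold in 231BrM-2a (-0.47 ± 0.13, adjusted p = 0.0296) and 1.38-fold in 231BoM-1833 (-0.46 ± 0.13, adjusted p = 0.0384). Both calls depended on single arrays. In 231BoM-1833 the call was lost without any 1 of the 4 arrays compared (adjusted p = 0.105 and 0.0739 without its replicates 1 and 2, and 0.0685 and 0.228 without MDA-MB-231 replicates 1 and 2), and in 231BrM-2a it was lost without its replicate 2 (adjusted p = 0.206) or MDA-MB-231 replicate 2 (adjusted p = 0.2). Both were also lost when unnamed clusters entered the adjustment (adjusted p = 0.0806 in 231BrM-2a and 0.0882 in 231BoM-1833).

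ADAMTS12 cleaves cartilage oligomeric matrix protein. It lay at 7.83 and 7.55 in 231BrM-2a, 8.44 and 8.86 in 231BoM-1833, and 8.12 and 8.33 in MDA-MB-231. The 3 lines did not overlap. It was 1.95-fold lower in 231BrM-2a than in 231BoM-1833 (-0.96 ± 0.16, adjusted p = 0.0026) and 1.45-fold lower than in MDA-MB-231 (-0.54 ± 0.16, adjusted p = 0.0474). The second call was lost without 231BrM-2a replicate 1 (adjusted p = 0.0663) or 2 (adjusted p = 0.267), or MDA-MB-231 replicate 1 (adjusted p = 0.0849) or 2 (adjusted p = 0.259), and when unnamed clusters entered the adjustment (adjusted p = 0.123). In 231BoM-1833 against MDA-MB-231 it differed by 0.43 (adjusted p = 0.105), and by 0.63 without 231BoM-1833 replicate 1 (adjusted p = 0.0365).

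ADAMTS16, which can cleave fibronectin, lay at 8.24 and 8.13 in 231BrM-2a, 8.76 and 8.91 in 231BoM-1833, and 8.64 and 8.31 in MDA-MB-231. The lines did not overlap, with 231BrM-2a lowest. It was 1.56-fold lower in 231BrM-2a than in 231BoM-1833 (-0.64 ± 0.13, adjusted p = 0.00755), a call that was lost without 231BrM-2a replicate 2 (adjusted p = 0.0609). ADAMTS17, ADAMTS18 and ADAMTS19 were not called, and the largest difference among them was -0.21 for ADAMTS19 in 231BoM-1833 against MDA-MB-231 (adjusted p = 0.309). ADAMTS13, which cleaves von Willebrand factor, reached -0.24 in the same comparison (adjusted p = 0.182).

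Of the 5 measured ADAMTS-like genes, ADAMTSL4 was higher in 231BrM-2a and ADAMTSL1 higher in 231BoM-1833 than in both other lines. ADAMTSL4 binds fibrillin-1, and its loss displaces the lens of the eye. It lay at 9.02 and 9.04 in 231BrM-2a, 7.46 and 7.39 in 231BoM-1833, and 7.73 and 7.53 in MDA-MB-231. Both 231BrM-2a arrays stood above the other 4. It was 2.65-fold higher than in MDA-MB-231 (1.40 ± 0.11, adjusted p = 7.2e-05) and 3.04-fold higher than in 231BoM-1833 (1.60 ± 0.11, adjusted p = 1.56e-05). The antisense gene ADAMTSL4-AS1, on a cluster of its own, lay at 5.99 and 6.05, 5.82 and 5.59, and 5.90 and 5.95 in the same order of lines, and was called in no comparison (difference of 0.09 in 231BrM-2a against MDA-MB-231, adjusted p = 0.611).

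ADAMTSL1, or punctin, is a secreted matrix protein. It lay at 6.55 and 6.72 in 231BrM-2a, 7.88 and 8.24 in 231BoM-1833, and 6.88 and 6.82 in MDA-MB-231. The 231BoM-1833 arrays stood above all others. It was 2.31-fold higher in 231BoM-1833 than in MDA-MB-231 (1.21 ± 0.14, adjusted p = 0.000872) and 2.68-fold lower in 231BrM-2a than in 231BoM-1833 (-1.42 ± 0.14, adjusted p = 0.000117). The second cluster of the gene gave the same calls with smaller differences, 0.46 ± 0.11 (adjusted p = 0.0253) and -0.37 ± 0.11 (adjusted p = 0.041). In 231BrM-2a against MDA-MB-231 the clusters differed in sign and neither was called (-0.21, adjusted p = 0.317, and 0.09, adjusted p = 0.621). ADAMTSL2, ADAMTSL3 and ADAMTSL5 were not called, and the largest difference among them was -0.32 for ADAMTSL2 in 231BoM-1833 against MDA-MB-231 (adjusted p = 0.195).

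Genes that lie beside a member on the chromosome were examined for the 14 called genes, taking the 5 measured neighbours on each side. Around ADAM10 on chromosome 15, 6 of 10 neighbours were higher and 0 lower in 231BrM-2a than in MDA-MB-231, with a median difference of 0.45. Of all symbols, 10.4% were higher and 8.57% lower in this comparison. The higher neighbours included the cyclin gene CCNB2 (0.93), the deubiquitinase gene MINDY2 (0.90) and the ubiquitin ligase gene RNF111 (0.62), while the 3 genes nearest on one or the other side, ALDH1A2, AQP9 and HSP90AB4P, were not called. Around ADAMTS3 on chromosome 4, 4 of 10 were higher and 0 lower in 231BoM-1833 than in MDA-MB-231, among them the kinase activator gene MOB1B (0.89), with a median of 0.32, where 8.32% of all symbols were higher. In the same comparison 3 of 10 neighbours were higher and 0 lower around each of ADAM19, ADAM23, ADAMTS9 and ADAMTSL4. Around ADAMTS16 on chromosome 5, 4 of 10 were lower and 0 higher in 231BoM-1833, with a median of -0.27, where 7.36% of all symbols were lower, while ADAMTS16 itself differed by 0.36 (adjusted p = 0.102). Limma called 0 of 10 neighbours around each of ADAMTS6 and ADAM8 in 231BrM-2a against MDA-MB-231 (unadjusted p under 0.05 for 1 and 2). ADAMTSL1 had 1 of 10 called, lower, in 231BoM-1833 against MDA-MB-231, and ADAMTS6 had 1 higher and 0 lower there. Between the derivatives, 2 of 10 neighbours of ADAMTS6 were higher and 1 lower in 231BrM-2a (all symbols 12.3% and 10.8%). The same comparison gave 0 called for ADAM8, and 1 higher and 0 lower for ADAMTSL1. Neighbours of ADAM10 there numbered 6 higher and 0 lower, with a median of 0.52. Those of ADAMTS3 numbered 0 higher and 4 lower (median -0.24), and those of ADAM23 0 and 3 (median -0.31). Around ADAMTS9 they numbered 2 and 2, around each of ADAMTS1, ADAMTS12 and ADAMTSL4 1 and 1, and around ADAMTS16 1 and 0. ADAMTS5, the neighbour of ADAMTS1 on chromosome 21, differed by 0.02 in 231BoM-1833 against MDA-MB-231 (adjusted p = 0.912). The loci of ADAM10, ADAMTS3 and ADAMTS16 were picked after their values were seen, and DNA copy number was not analysed here.

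**Figure D3:**
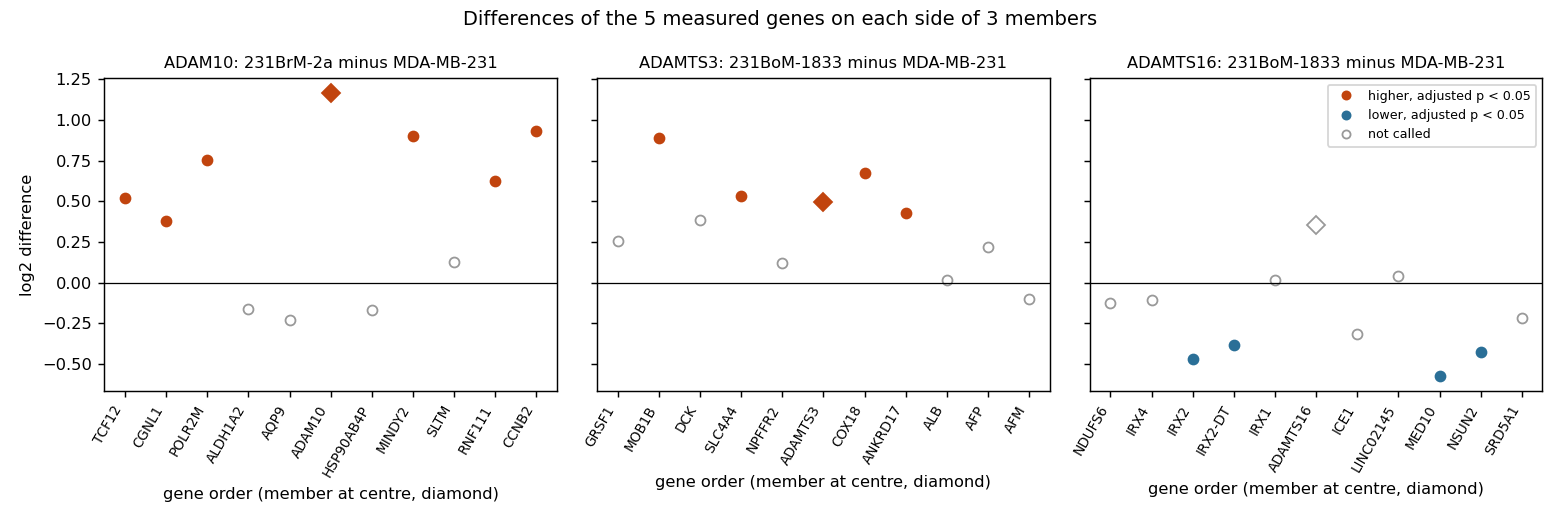
Log2 difference of ADAM10, ADAMTS3 and ADAMTS16 (diamonds) and of the 5 measured genes on each side in chromosome order, 231BrM-2a minus MDA-MB-231 on the left and 231BoM-1833 minus MDA-MB-231 in the other panels; filled points passed an adjusted p of 0.05. The points called around ADAM10 lie above 0, and those called around ADAMTS16 lie below 0.

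Transcripts of the TIMPs and of other protease inhibitors were examined next, as 1 list that includes the serpin SERPINA3. Of 7 measured inhibitor genes, 2 were higher and 0 lower in 231BrM-2a against MDA-MB-231 (median 0.23), 2 higher and 2 lower in 231BoM-1833 against MDA-MB-231 (median 0.10), and 4 higher and 1 lower in 231BrM-2a against 231BoM-1833 (median 0.38). That is 28.6%, 57.1% and 71.4% of the list, against 19.0%, 15.7% and 23.1% of all symbols. TIMP4 lay at 8.35 and 8.48 in 231BrM-2a, 6.60 and 6.65 in 231BoM-1833, and 7.83 and 7.73 in MDA-MB-231. It was 1.55-fold higher in 231BrM-2a (adjusted p = 0.00359) and 2.23-fold lower in 231BoM-1833 (adjusted p = 0.000294) than in MDA-MB-231.

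TIMP3, the TIMP with the widest reach over ADAM and ADAMTS enzymes, ran the other way. It lay at 7.31 and 7.35 in 231BrM-2a, 9.15 and 8.56 in 231BoM-1833, and 7.66 and 7.82 in MDA-MB-231. It was 2.89-fold lower in 231BrM-2a than in 231BoM-1833 (adjusted p = 0.000312) and 2.16-fold higher in 231BoM-1833 than in MDA-MB-231 (adjusted p = 0.0042). A second cluster of TIMP3 differed by 0.07 in the last comparison (adjusted p = 0.704). Between the derivatives the difference of TIMP3 was -1.53, and -1.83 to -1.23 with 1 array left out. It was as small as -0.51 over all alternative settings, which include the second cluster. RECK, a membrane-anchored protease inhibitor, was 2.14-fold higher in 231BrM-2a than in MDA-MB-231 (8.77 and 8.92, against 7.87 and 7.63, adjusted p = 0.000467). SERPINA3, a secreted serpin, was 2.05-fold lower in 231BoM-1833 than in MDA-MB-231 (5.24 and 5.53, against 6.33 and 6.51, adjusted p = 0.00159), and TIMP1 was higher there by 0.51 (adjusted p = 0.0189). The call of TIMP1 was lost without 231BoM-1833 replicate 1 (adjusted p = 0.0661) or MDA-MB-231 replicate 1 (adjusted p = 0.0661) or 2 (adjusted p = 0.127), and when unnamed clusters entered the adjustment (adjusted p = 0.0523).

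Of 15 genes whose products mature or guide the enzymes, 4 were higher and 1 lower in 231BrM-2a against MDA-MB-231, 1 higher and 1 lower in 231BoM-1833 against MDA-MB-231, and 5 higher and 1 lower in 231BrM-2a against 231BoM-1833. That is 33.3%, 13.3% and 40.0% of the list, against 19.0%, 15.7% and 23.1% of all symbols, so the share in 231BoM-1833 lay below that of all symbols. FURIN, the convertase that removes the propeptide of many members, lay at 8.61 and 8.76 in 231BrM-2a, 7.46 and 7.43 in 231BoM-1833, and 7.56 and 7.45 in MDA-MB-231, 2.27-fold higher in 231BrM-2a than in MDA-MB-231 (adjusted p = 0.000137). B3GLCT, which extends the O-linked fucose of thrombospondin repeats, lay at 8.20 and 8.48, 7.07 and 6.83, and 6.97 and 7.06 in the same order of lines, 2.51-fold higher in 231BrM-2a than in MDA-MB-231 (adjusted p = 0.00024). POFUT2, which adds that fucose, was higher by 0.53 (adjusted p = 0.014); it was named after its values were seen, and its call was lost without 231BrM-2a replicate 2 (adjusted p = 0.109) or MDA-MB-231 replicate 1 (adjusted p = 0.0714) or 2 (adjusted p = 0.0832).

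The tetraspanins TSPAN5 and TSPAN15, which carry ADAM10 to the cell surface and steer its choice of substrate, had opposite signs. TSPAN5 lay at 9.21 and 9.48 in 231BrM-2a, 10.54 and 10.37 in 231BoM-1833, and 9.98 and 10.06 in MDA-MB-231, 2.15-fold lower in 231BrM-2a than in 231BoM-1833 (adjusted p = 0.00029). TSPAN15 lay at 9.13 and 9.45, 8.38 and 8.35, and 8.92 and 8.76 in the same order, 1.9-fold higher in 231BrM-2a than in 231BoM-1833 (adjusted p = 0.00104). Against MDA-MB-231, TSPAN5 differed by -0.68 in 231BrM-2a (adjusted p = 0.00571) and 0.43 in 231BoM-1833 (adjusted p = 0.0468), and TSPAN15 by 0.45 (adjusted p = 0.0407) and -0.47 (adjusted p = 0.0405). Each of these 4 calls against MDA-MB-231 was lost when single arrays were left out, and all but that of TSPAN5 in 231BrM-2a also when unnamed clusters entered the adjustment (adjusted p = 0.0933 to 0.102). For TSPAN5 in 231BrM-2a these were 231BrM-2a replicate 1 (adjusted p = 0.0527) and MDA-MB-231 replicate 2 (adjusted p = 0.0548), and in 231BoM-1833 any 1 of the 6 arrays (adjusted p = 0.0525 to 0.18). For TSPAN15 they were any 1 of the 4 arrays compared in 231BoM-1833 (adjusted p = 0.0844 to 0.185), and in 231BrM-2a its replicate 2 (adjusted p = 0.269) and MDA-MB-231 replicates 1 (adjusted p = 0.0804) and 2 (adjusted p = 0.229).

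Of 30 measured genes for proteins that ADAM10 or ADAM17 shed, 6 were higher and 3 lower in 231BrM-2a against MDA-MB-231 (median 0.00), 4 higher and 2 lower in 231BoM-1833 against MDA-MB-231 (median 0.09), and 3 higher and 2 lower in 231BrM-2a against 231BoM-1833 (median -0.07). That is 30.0%, 20.0% and 16.7% of the list, against 19.0%, 15.7% and 23.1% of all symbols, so the share between the derivatives lay below that of all symbols. The EGF receptor ligand HBEGF lay at 9.68 and 9.78 in 231BrM-2a, 11.93 and 11.49 in 231BoM-1833, and 10.28 and 10.38 in MDA-MB-231. It was 3.94-fold lower in 231BrM-2a than in 231BoM-1833 (adjusted p = 2.44e-05) and 2.6-fold higher in 231BoM-1833 than in MDA-MB-231 (adjusted p = 0.000632). EREG, another such ligand, was lower than in MDA-MB-231 in both derivatives, 2.3-fold in 231BrM-2a (adjusted p = 0.00417) and 2.81-fold in 231BoM-1833 (adjusted p = 0.00239). CXCL16, a membrane-bound chemokine that ADAM10 releases, was 2.4-fold higher in 231BrM-2a than in MDA-MB-231 (7.33 and 7.49, against 6.15 and 6.14, adjusted p = 9.46e-05). The adhesion molecule L1CAM was 1.91-fold higher in 231BrM-2a (adjusted p = 0.00147) and 2.1-fold higher in 231BoM-1833 (adjusted p = 0.00118) than in MDA-MB-231. ICAM1, an adhesion molecule bound by leukocyte integrins, was 2.17-fold higher in 231BrM-2a than in MDA-MB-231 (adjusted p = 0.0011).

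Of 22 measured matrix substrates of ADAMTS enzymes, 5 were higher and 2 lower in 231BrM-2a against MDA-MB-231 (median -0.07), 1 higher and 4 lower in 231BoM-1833 against MDA-MB-231 (median -0.14), and 5 higher and 2 lower in 231BrM-2a against 231BoM-1833 (median 0.03). That is 31.8%, 22.7% and 31.8% of the list, against 19.0%, 15.7% and 23.1% of all symbols. FBN1, which encodes the fibrillin-1 of microfibrils, lay at 10.13 and 10.02 in 231BrM-2a, 8.39 and 8.36 in 231BoM-1833, and 8.61 and 8.56 in MDA-MB-231, 2.81-fold higher in 231BrM-2a than in MDA-MB-231 (adjusted p = 3.56e-05). LTBP1, which ties latent TGF-beta to the matrix, was lower than in MDA-MB-231 in both derivatives, 1.91-fold in 231BrM-2a (adjusted p = 0.00181) and 2.14-fold in 231BoM-1833 (adjusted p = 0.00136). COL5A1, a fibrillar collagen gene, was 2.37-fold higher in 231BrM-2a than in MDA-MB-231 (adjusted p = 9.82e-05). The matricellular gene THBS2 lay at 6.30 and 6.20 in 231BrM-2a, 8.18 and 8.35 in 231BoM-1833, and 6.23 and 6.26 in MDA-MB-231, 4.08-fold higher in 231BoM-1833 than in MDA-MB-231 (adjusted p = 1.19e-05).

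Some markers of fibroblasts and pericytes were higher in 231BrM-2a, as were some of the matrix genes, and no endothelial marker was. Of 8 markers of fibroblasts, pericytes and endothelium, 4 were higher and 1 lower in 231BrM-2a than in MDA-MB-231, where 10.4% of all symbols were higher and 8.57% lower. PDGFRB lay at 7.78 and 8.01 in 231BrM-2a, 6.20 and 6.49 in 231BoM-1833, and 6.20 and 6.20 in MDA-MB-231, a difference of 1.70 between 231BrM-2a and MDA-MB-231. The others that were higher were DCN, RGS5 and LUM, and LUM lay between 3.47 and 4.05 on all arrays. The call of RGS5 was lost without 231BrM-2a replicate 1 (adjusted p = 0.0787) or MDA-MB-231 replicate 1 (adjusted p = 0.0845), and those of LUM (adjusted p = 0.09 to 0.205) and PECAM1 (adjusted p = 0.081 to 0.215) without any 1 of the 4 arrays of 231BrM-2a and MDA-MB-231. PECAM1 was lower (-0.38), though its other cluster differed by 0.01 (adjusted p = 0.947), and PDGFRA, CDH5 and VWF were not called. DCN and VWF are on the substrate list as well. The mean log2 level of the 8 was 5.71 and 5.80 in 231BrM-2a, 5.20 and 5.26 in 231BoM-1833, and 5.35 and 5.36 in MDA-MB-231. Their part in the result was not tested, and a log2 array value has no true 0 that would mark absence.

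Of 9 measured integrin genes whose products bind ADAM disintegrin domains or meet them on the cell surface, 3 were higher and 2 lower in 231BrM-2a against MDA-MB-231, 3 higher and 1 lower in 231BoM-1833 against MDA-MB-231, and 3 higher and 2 lower in 231BrM-2a against 231BoM-1833. That is 55.6%, 44.4% and 55.6% of the list, against 19.0%, 15.7% and 23.1% of all symbols. ITGB3, the beta chain of the vitronectin receptor, lay at 10.17 and 10.75 in 231BrM-2a, 8.61 and 8.26 in 231BoM-1833, and 8.35 and 8.12 in MDA-MB-231, 4.67-fold higher in 231BrM-2a than in MDA-MB-231 (adjusted p = 0.000117). Its alpha partner ITGAV was 2.02-fold higher there (adjusted p = 0.000279). ITGAV was also higher in 231BoM-1833 than in MDA-MB-231, by 0.44 (limma adjusted p = 0.0225), a call lost under 4 alternative settings. ITGA2, a collagen receptor chain, was 2.61-fold lower in 231BrM-2a than in MDA-MB-231 (adjusted p = 8.13e-05) and 3.47-fold lower than in 231BoM-1833 (adjusted p = 8.51e-06). ITGA6, a laminin receptor chain, was higher in 231BoM-1833 than in MDA-MB-231 by 0.80 (adjusted p = 0.00279) and 2.61-fold lower in 231BrM-2a than in 231BoM-1833. ITGB5 differed from MDA-MB-231 by 0.56 in 231BrM-2a (limma adjusted p = 0.0147) and -0.52 in 231BoM-1833 (limma adjusted p = 0.0253). Both calls were lost when some single arrays were left out, and when unnamed clusters entered the adjustment. In 231BrM-2a against 231BoM-1833 it differed by 1.08 (limma adjusted p = 0.000358).

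**Figure D4:**
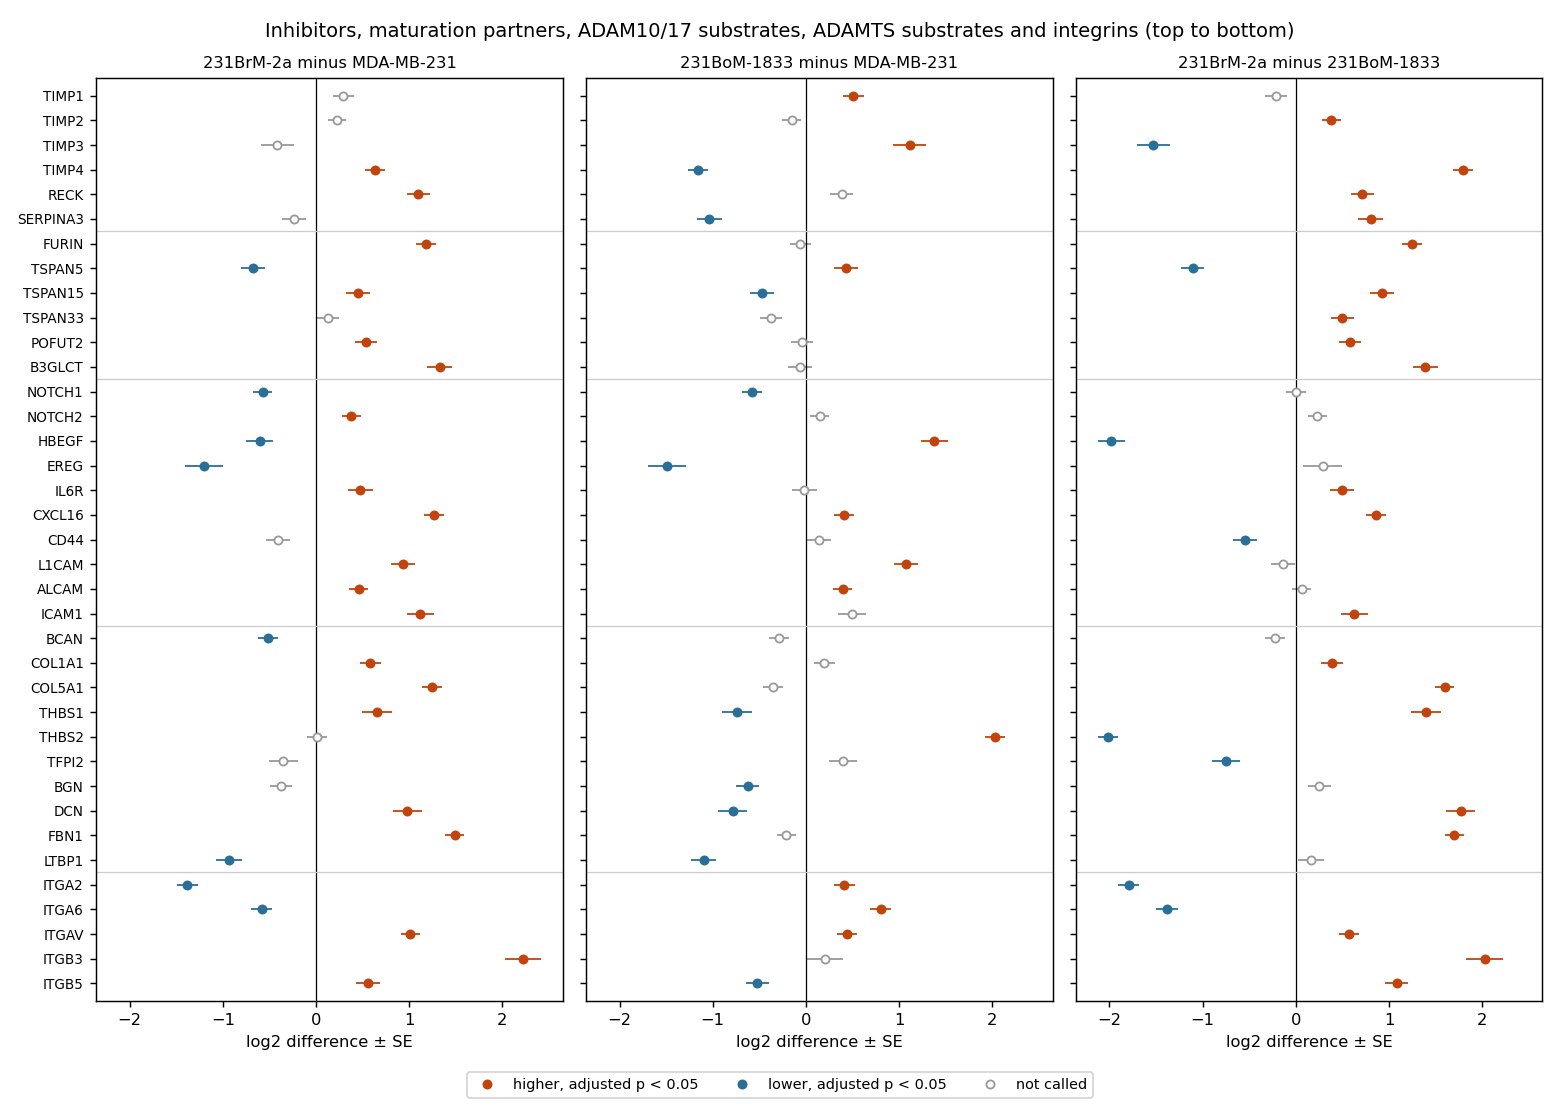
Log2 difference with its standard error in the 3 comparisons for the genes of the partner lists called in at least 1, ordered from the top as inhibitors, maturation partners, shed proteins, matrix substrates and integrins; filled points passed an adjusted p of 0.05. ITGB3 lies farthest right in the left panel, and THBS2 farthest right in the middle panel.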

How the data were processed

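Each deposited value is the log2 level of a transcript cluster on an Affymetrix Human Gene 1.0 ST array. The authors obtained it with RMA in Expression Console, per the labels and the submitters' processing notes, with no version stated. RMA corrects background, puts the arrays on 1 distribution and summarises probes, so differences in total RNA content are lost and folds of dim clusters may be compressed. No detection calls, scan dates or batches were used here, and the precision is limited by the 2 arrays per line.

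From these values, the 6 arrays were fitted together with 1 mean per line, using limma (version 3.58.1, R version 4.3.3) with lmFit and plain eBayes, without trend or robustness, two-sided. P-values were adjusted by the Benjamini-Hochberg method over the 21214 of 33297 clusters that carry a gene symbol, and called under 0.05. The spread had 3 residual and 6.06 prior degrees of freedom. 19460 clusters carry 1 symbol and 1754 several; genes were named from the first kind, and for a symbol on several clusters the highest mean was used. All 44 genes matched the RefSeq table (GRCh38.p14) by gene number. Neighbours and promoters come from RefSeq tables; the build used to design the array is unstated in the labels. The fit was tested on simulated data.

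The genes, partner lists, markers and tests were chosen with earlier results of these data known. The text names every called member, the uncalled member with the largest difference in each role, up to 3 called genes per partner list and comparison, and the sort markers; other names are values shown for context or chosen after they were seen. Some listed symbols, among them PAPLN, AREG, SDC4, F11R, EPHB2, ADAM7, ADAMTS15, ADAMTS7 and ADAMTSL6, had no cluster of their own symbol and were not analysed here. The marker list of the sorted cells (7 genes, including VIM, ESR1, PGR and ERBB2) had 1 gene higher and 1 lower in 231BrM-2a against MDA-MB-231, 0 called in 231BoM-1833 against MDA-MB-231, and 1 higher and 2 lower in 231BrM-2a against 231BoM-1833. That is 28.6%, 0.0% and 42.9% of the list, against 19.0%, 15.7% and 23.1% of all symbols. The alternatives left out each array, changed the normalization, the filter, the clusters adjusted over, the variance model, the samples in the fit and the cluster per symbol, or added the replicate number as a block.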

Additional observations from a re-analysis of the deposited data

Results flagged for a closer look

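Both genes given here were called in opposite directions in the 2 derivatives against MDA-MB-231 and in the comparison of the derivatives with each other. They were chosen for opposite signs against the same parental arrays, and the difference between the derivatives is the sum of both sizes, so it is not separate evidence. ADAMTS6 was lower in 231BrM-2a (-1.28) and higher in 231BoM-1833 (0.65) than in MDA-MB-231, and 231BrM-2a against 231BoM-1833 gave -1.93 (limma adjusted p = 1.03e-05). ADAM23 was lower in 231BrM-2a (-0.57) and higher in 231BoM-1833 (0.91), and 231BrM-2a against 231BoM-1833 gave -1.475 (limma adjusted p = 4.93e-05). The limma call of ADAMTS6 in 231BoM-1833 and that of ADAM23 in 231BrM-2a against MDA-MB-231 were each lost when some single arrays were left out, while both differences between the derivatives held under every alternative that tested them. With 2 arrays per line, no array could be tested for standing apart from its group.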

How the results depend on the processing

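Of the 27 calls of ADAM and ADAMTS genes, 16 held under each of the 15 alternative settings that tested them, 11 were lost under at least 1 and 0 turned in direction. Of 56 calls of named partner genes, 42 held, 14 were lost under at least 1 and 0 turned. Of 15 further calls named outside the rule (markers, TIMP1, POFUT2 and neighbours), 8 held and 7 were lost under at least 1. Values not called in the main analysis passed under some settings for ADAM8 (7 settings), ADAMTS12 (2) and ADAMTS9 (1) in 231BoM-1833 and ADAM6 (4) in 231BrM-2a, all against MDA-MB-231. Leaving out either array of the line not compared gave the same fit as the compared lines alone. Those settings are therefore not separate alternatives. The number of genes called in 231BoM-1833 against MDA-MB-231, 8 in the main analysis, was 5 when all clusters entered the adjustment and 3 to 9 when 1 array was left out (4 and 3 without MDA-MB-231 replicates 1 and 2). In 231BrM-2a against MDA-MB-231, also 8, it was 5 to 9 with 1 array left out (5 without 231BrM-2a replicate 2 or MDA-MB-231 replicate 2), and in 231BrM-2a against 231BoM-1833, 11, it was 9 to 11.

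Among the values reported, the sign turned only for differences that were not called. Leaving out 1 array, ADAMTS1 in 231BrM-2a against MDA-MB-231 ran from -0.0307 to 0.136, and ADAMTS10 in 231BrM-2a against 231BoM-1833 from -0.136 to 0.111. ADAMTSL1 in 231BrM-2a against MDA-MB-231 was 0.0887 with its other cluster. The cause was not tested.

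Replicate numbers share no stated source: replicate differences correlated at 0.04 (231BoM-1833 and MDA-MB-231), -0.16 (231BrM-2a and MDA-MB-231) and -0.17 (231BrM-2a and 231BoM-1833). With the replicate number as a block, the counts were 7 in each derivative against MDA-MB-231 and 11 between the derivatives, and the calls of ADAMTS10 in 231BoM-1833 (adjusted p = 0.0589) and ADAMTS12 in 231BrM-2a against MDA-MB-231 (adjusted p = 0.0545) were lost. With the numbers of 231BrM-2a crossed, a choice made after seeing the data, they were 9 (231BrM-2a), 10 (231BoM-1833) and 11. With 2 arrays per line and no background level, small differences of dim genes cannot be resolved, and the filter on dim clusters tested only 22 of the 44 genes. Counts of neighbouring genes were not run under the alternatives.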

Other observations

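Of the 7 genes on the list of sorted-cell markers, VIM and ERBB2 also differed between the derivatives. VIM, the intermediate filament of mesenchymal cells, lay at 12.30 and 12.34 in 231BrM-2a and 12.91 and 12.92 in 231BoM-1833, a difference of -0.59 (limma adjusted p = 0.00256). ERBB2, a receptor of the EGF receptor family, lay at 9.12 and 9.25 in 231BrM-2a and 8.29 and 8.47 in 231BoM-1833, higher in 231BrM-2a by 0.80 (limma adjusted p = 0.00102). ZDBF2, next to ADAM23 on one side on chromosome 2, was higher in 231BoM-1833 than in MDA-MB-231 by 1.34 (limma adjusted p = 0.000324), while MDH1B, next to it on the other side, differed by -0.28 (limma adjusted p = 0.087).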
